A study of Drosophila melanogaster with 2 samples.

Results

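Hox genes encode homeodomain transcription factors that give each stretch of the body axis its identity, and in the fly they lie in a pair of clusters on arm 3R, the Antennapedia complex and the bithorax complex. Each gene is expressed in its own domain of segments, and Polycomb and trithorax group proteins maintain those domains through development. The Antennapedia complex also holds bcd and zen, homeobox genes that act in early axis patterning and do not give segments their identity. Binding of the protein CG8478 was followed at 10 genes, which were listed by name: lab, pb, zen, bcd, Dfd, Scr and Antp of the Antennapedia complex and Ubx, abd-A and Abd-B of the bithorax complex. They are 10 of the 13968 protein-coding genes on the 7 main chromosome arms, and each was taken with 10 kb on either side of its annotated span.

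The data come from chromatin immunoprecipitation with sequencing (ChIP-seq) of whole Drosophila melanogaster embryos aged 0 to 24 h. The transgenic flies make CG8478 joined to eGFP, an enhanced green fluorescent protein used as a tag, and chromatin was pulled down with an antibody against GFP. The series has 1 group, strain CG8478-GFP, with 2 biological replicates drawn from 1 fly line, and no second group. Whole embryos pool the cells that express a Hox gene with those that keep it silent, so a peak here cannot be placed in a segment or a cell type, and the collection window spans all of embryogenesis. The study deposited a conservative and a larger optimal peak list for both replicates together, and a list for each replicate alone. After repeat entries were removed these held 2904, 3101, 2520 and 2225 peaks on the main arms. Each peak carries the signal of the authors' peak caller, which has no stated scale and is used here to describe and rank peaks within a list. At single peaks the signals of the 2 peak sets compared between replicates are also set side by side, with no adjustment for depth or scale. Read depth is unknown because the lists hold no read counts. With 1 group there is no contrast to test, so counts over the 10 genes are set beside the same counts over all protein-coding genes and carry no p-value.

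The 8 merged windows around the 10 genes covered 0.515 Mb and held 11 conservative entries, each 404 bp wide. Of these, 3 lay at the gene's own promoter, meaning a summit within 500 bp of one of its start sites, at bcd, Dfd and abd-A. A further 4 lay in a gene's own intron, at lab, abd-A and Abd-B, and the remaining 4 lay at promoters of neighbouring genes that are no Hox genes. The sequences around 5 summits at the genes' own sites are given first, since the sites differ in them. They are 201 bp on build dm6, each read in the direction of its gene. Capitals mark matches on either strand to GCCAT, the core of the site of the Polycomb group protein Pho, to GAGAG, the site of the GAGA factor, to CGATA, the core of the DNA replication-related element (DRE), and to CAGGTAG, the site of the early activator Zelda.
bcd promoter, chr3R:6759477-6759677, minus strand: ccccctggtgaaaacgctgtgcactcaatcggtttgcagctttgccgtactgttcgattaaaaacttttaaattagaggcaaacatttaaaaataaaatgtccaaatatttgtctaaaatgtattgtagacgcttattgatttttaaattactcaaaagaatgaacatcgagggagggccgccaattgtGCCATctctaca
Dfd promoter, chr3R:6791532-6791732, plus strand: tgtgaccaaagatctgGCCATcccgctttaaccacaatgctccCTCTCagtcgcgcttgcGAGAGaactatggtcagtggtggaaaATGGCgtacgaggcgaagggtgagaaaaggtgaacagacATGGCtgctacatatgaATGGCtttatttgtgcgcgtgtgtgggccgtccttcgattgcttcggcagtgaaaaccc
abd-A promoter, chr3R:16830094-16830294, minus strand: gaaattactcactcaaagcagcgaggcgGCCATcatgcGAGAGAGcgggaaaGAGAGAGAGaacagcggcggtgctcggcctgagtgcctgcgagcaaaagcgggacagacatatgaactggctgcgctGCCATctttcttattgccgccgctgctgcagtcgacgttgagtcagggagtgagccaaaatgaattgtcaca
lab intron, chr3R:6672521-6672721, minus strand: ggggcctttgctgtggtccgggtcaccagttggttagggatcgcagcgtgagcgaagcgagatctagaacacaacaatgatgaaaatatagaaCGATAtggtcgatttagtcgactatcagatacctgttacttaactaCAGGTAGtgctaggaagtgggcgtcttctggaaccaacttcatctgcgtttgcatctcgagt
abd-A intron, chr3R:16811886-16812086, minus strand: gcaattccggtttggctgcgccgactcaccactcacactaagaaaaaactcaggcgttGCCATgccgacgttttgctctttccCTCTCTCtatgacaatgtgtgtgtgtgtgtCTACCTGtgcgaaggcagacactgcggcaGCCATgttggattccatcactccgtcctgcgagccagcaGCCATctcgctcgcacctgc

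Own promoter peaks of the conservative list were found at 3 of the 10 genes, against 22.6% of all protein-coding genes. The count was 2 in the optimal list (23.5% of all genes), 0 in the list of replicate 1 (19.5%) and 3 in that of replicate 2 (18.8%). Shares of 3 in 10 and 22.6% are close, so the list as a whole was near the background. Among the 6 listed genes with a span of at least 20 kb, 1 had an own promoter peak, against 21.9% of all genes of that length.

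The bcd gene (FBgn0000166) encodes the maternal morphogen of the anterior embryo. Its promoter held the highest own site of the 10 genes, with a conservative signal of 100.79 (3R, 6759375 to 6759778) and a summit 111 bp upstream of the start site. That signal ranked 1761 of 2904, so even the highest own site lay below the median of the list. The comparison between replicates ranked peaks by their irreproducible discovery rate (IDR), and it gives the signal of the peak in each of the 2 ChIP peak sets compared, called its first and second input here (not control DNA). At bcd these were 37.79 in the first input and 58.01 in the second. Wherever an input peak had a counterpart of the same position and signal in a replicate's own ranked list, it was replicate 1's for the first input and replicate 2's for the second. The bcd peak was called in the optimal list and from replicate 2 alone (58.01), and not from replicate 1 alone.

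The abd-A gene (FBgn0000014), which specifies abdominal segments, had an own promoter peak of signal 75.06 (16829992 to 16830395), 145 bp upstream of its most upstream start site. Its input signals were 39.29 and 35.15, nearly equal. The peak was called in the optimal list and in replicate 2's own list (35.15).

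At Dfd (FBgn0000439), which specifies head segments that form the mouthparts, the own promoter peak had a signal of 71.79 (6791430 to 6791833). Its summit lay 204 bp upstream of the start site, and the input signals were 37.39 and 37.85. Neither the optimal list nor that of replicate 1 held it. Replicate 2's own list held it at 37.85, with a second entry of 11.25 whose summit lay 2 bp downstream of the start site. All 3 promoter peaks were thus called from replicate 2 alone and not from replicate 1 alone, while their input signals differed by a log2 ratio of second over first of 0.62 at bcd, 0.02 at Dfd and -0.16 at abd-A. Over all conservative entries that ratio had a median of -0.17 and a standard deviation of 0.55.

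**Figure D1:**
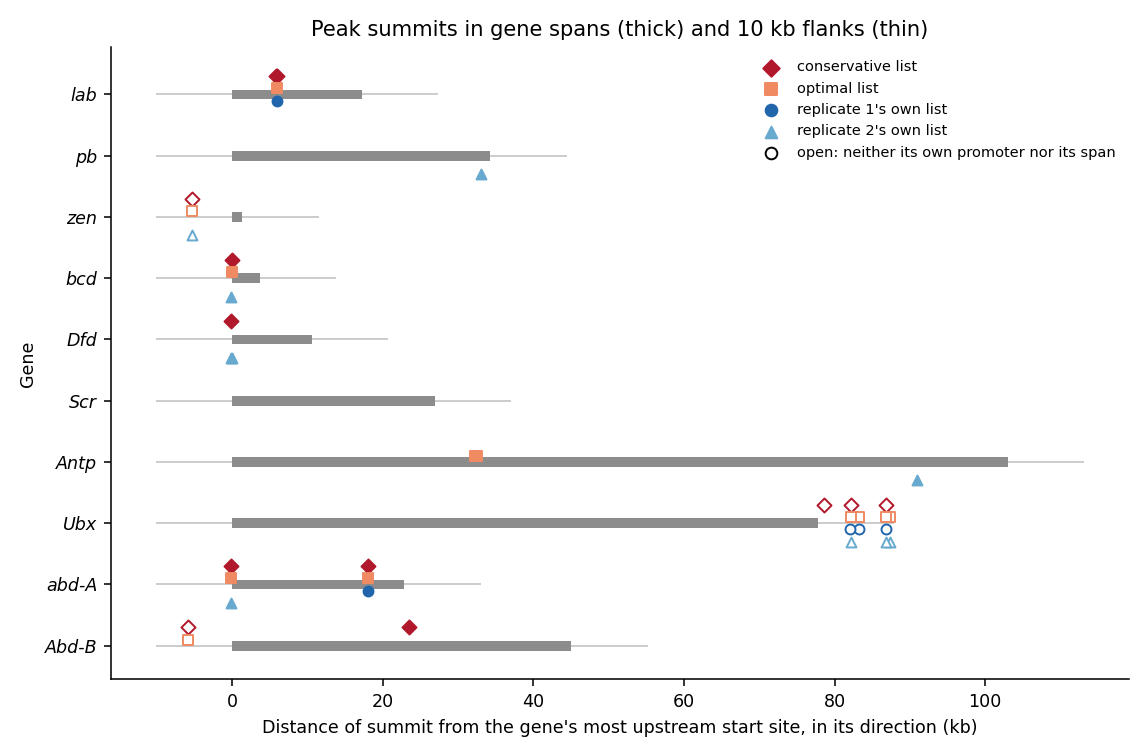
Distance of each peak summit from the gene's most upstream start site (x axis, kb, in the direction of transcription) for the 10 genes (y axis), with 1 symbol for each of the 4 lists. Filled symbols are at the gene's own promoter or inside its span; open symbols are elsewhere in the 10 kb flanks, and Scr has no symbol.

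Inside gene bodies and away from every start site, conservative summits were found at 3 of the 10 genes, lab, abd-A and Abd-B. Over all protein-coding genes this was so for 1.3%, and for 6.67% of those spanning at least 20 kb. Within that length class the listed genes had 2 of 6. A summit anywhere inside the span was found at the same 3 of 10 genes, against 7.35% of all genes, since the 3 promoter summits lie upstream of their spans. Of the 11 entries in the windows, 7 were in promoters (63.6%, 95% Wilson interval 35.4 to 84.8), against 2577 of 2904 in the whole list (88.7%, 87.5 to 89.8). The remaining 4 were intronic (36.4%), against 4.3% of the whole list. A pair of these intronic entries, at lab, share their input peaks. With such entries counted once, 7 of 10 were in promoters (70.0%, 95% Wilson interval 39.7 to 89.2), against 89.0% of 2774 in the whole list, a share that lies inside that interval.

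The lab gene (FBgn0002522), which acts in the head and the midgut, had the highest intronic site. Its signal was 96.91 (6672419 to 6672822), 5969 bp downstream of the nearest own start site. A second conservative entry of signal 22.08 overlapped it by 201 bp and had the same input signals, so the pair is 1 site and the windows hold 10 sites in all. The input signals were unequal, 78.79 in the first input and 30.85 in the second, a log2 ratio of -1.35. It was called from replicate 1 alone (78.79) and not from replicate 2 alone. Its summit lies within an annotated fragment of the transposable element INE-1, from 6672583 to 6672639. Of the 11 entries in the windows 2 had a summit in an annotated transposable element, against 0.379% of the conservative list. How uniquely reads map there was not tested.

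The intronic site of abd-A had a signal of 70.64 (16811784 to 16812187). It lay 16119 bp downstream of the nearest abd-A start site, while that of lncRNA:TS16 was nearer, at 10687 bp. Its input signals were 44.23 and 27.78, and it was called in the optimal list and from replicate 1 alone (44.23). The Abd-B gene (FBgn0000015), which specifies the posterior abdomen, had an intronic site of 57.48. The start site nearest to it was that of lncRNA:CR46267, 3134 bp away. This intronic site was called in the conservative list alone, with input signals of 36.05 and 23.23. It was close to the threshold, at a −log10 global IDR of 2.03 where the list begins at 2.0. All 3 intronic sites had the higher signal in the first input, whereas the 3 promoter sites had no common direction. Their log2 ratios of second over first were -1.35 at the lab intron, -0.67 at that of abd-A and -0.63 at that of Abd-B. Over all conservative entries the median was -0.17 with a standard deviation of 0.55, and all promoter and all intronic entries each had -0.17. A higher first input was thus the usual direction, and a difference between the classes was not tested.

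**Figure D2:**
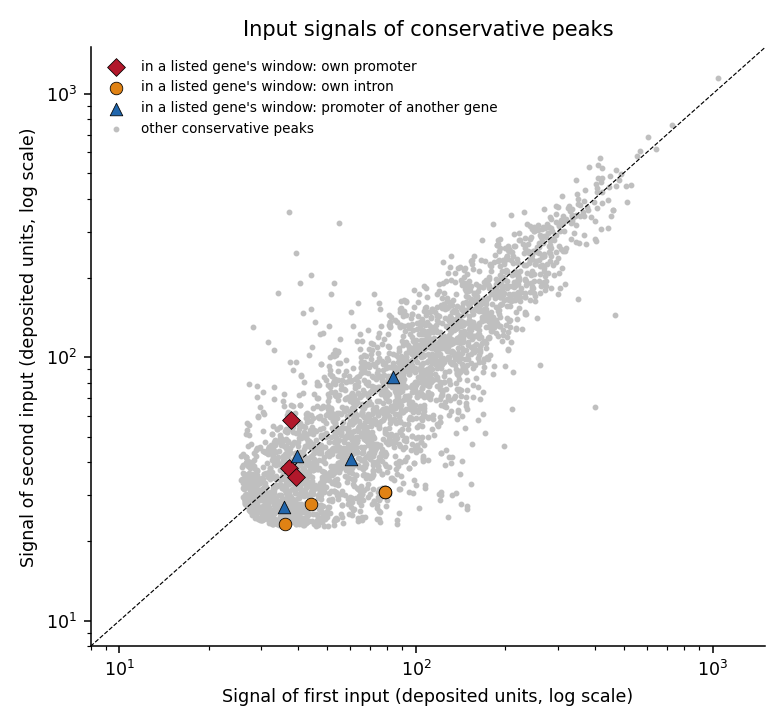
Signal of the first input (x axis) and of the second input (y axis), in deposited units on log scales, for every conservative peak, with the dashed line marking equal signals. The own promoters of bcd, Dfd and abd-A lie near the line or above it, the own introns lie below it, and the highest of the coloured points is the CCT3 promoter at 83.74 and 84.28.

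No own site was called in both replicates' own lists. Of the 6 own sites, leaving out the second lab entry, 2 overlapped a peak of replicate 1 alone, 3 of replicate 2 alone and 1 of neither. Over the whole conservative list 63.6% of entries overlapped a peak of both. Among the 812 conservative entries with a signal from 57.48 to 100.79, the range of the 6 own sites, 17.2% overlapped both. Of those 812, 189 overlapped a peak of replicate 1 alone, 166 of replicate 2 alone and 317 of neither.

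Further own sites were called outside the conservative list. At Antp, the thoracic selector gene, the optimal list had an intronic site of signal 52.37 (6966558 to 6966961), 8390 bp upstream of the nearest own start site, with an overlapping entry of 16.2. Its input signals in the comparison between replicates were 27.31 and 18.43 at a −log10 IDR of 1.15. Replicate 2's own list had a site of 31.17 in an annotated untranslated region inside the span of Antp (6908110 to 6908453). The input signals there were 18.75 and 31.17. The start site nearest to it was that of lncRNA:CR43252, 3600 bp away. At pb, which acts in the adult mouthparts, replicate 2's own list had an intronic site of 45.44 near the end of the gene (6708873 to 6709216). Its summit lay 4961 bp from the nearest start site, that of Ccp84Aa. The ranked entry there had 7.02 in the first input and 45.44 in the second, at a −log10 IDR of 0.09, so the inputs were far apart.

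The remaining genes had no own site in any of the 4 lists. Scr, which acts in the labial and prothoracic segments and is required for the salivary gland, had 0 peaks in its window in all 4. The window of zen, which patterns the dorsal embryo, held the bcd promoter peak alone. Ubx, which sets haltere against wing, had 0 summits inside its span of 77804 bp in all 4 lists.

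The peaks counted in the Ubx window lie beyond the end of the gene, at promoters of a compact group of neighbours. The highest in the windows of all 10 genes was that of CCT3, a subunit of the cytosolic chaperonin, with a conservative signal of 165.4 and input signals of 83.74 and 84.28. It was called in all 4 lists, as was the peak of the uncharacterised CG14907 (67.93). The promoter of modSP, a serine protease gene of the Toll pathway, had 93.5 with a summit inside another INE-1 fragment, and was called in the conservative list alone. Peaks at Mettl4 (68.23) and CG10324 (55.13) were called in the optimal list and in 1 replicate's own list each. On the far side of Abd-B, the promoter of Actn3, an alpha-actinin gene, had 60.75 in both the conservative and the optimal list.

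Counted by window, 7 of the 10 genes had a conservative peak, against 57.2% of all protein-coding genes, 58.8% of those on 3R and 56.9% of those spanning at least 20 kb. The 6 listed genes of at least 20 kb had 3. The optimal list also gave 7 genes (59.2% of all genes), replicate 1's own list 3 (52.5%), and replicate 2's own list 7 (51.3%). The density of conservative entries was 21.4 per Mb of Hox windows, against 21.1 per Mb of the main arms. The list of replicate 1 gave 9.71 per Mb of Hox windows, against 18.3 per Mb of the main arms, and that of replicate 2 gave 17.5, against 16.2. The density of the windows relative to the arms thus differed between the replicates' lists. Ubx and zen count here through neighbouring genes. Without them 5 genes had a conservative summit at their own promoter or inside their span, against 24.0% of all protein-coding genes. That count was not set beside genes of like length, though 6 of the 10 span at least 20 kb.

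The peaks in the windows were weak for their list. Their conservative signals ran from 22.08 to 165.4 with a median of 71.79, against a median of 128.27 over all 2904, and CCT3 alone exceeded that median. The 3 own promoter peaks had a median of 75.06, against 142.23 for all promoter peaks. The 4 intronic entries had 64.06, against 73.59 for all 125 intronic entries, so the intronic entries were nearer to their class than the promoter peaks were. In replicate 1's own list 0 of the 5 peaks in the windows exceeded the list's median, and in replicate 2's 1 of 9.

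To give values for every gene, the ranked list of the comparison between replicates was read at each start site. It holds 101302 entries on the main arms, against the 2904 of the conservative list. All 10 genes had an entry within 500 bp of an own start site, against 76.0% of protein-coding genes. The highest signal per gene had a median of 46.1 over the 10 genes and 35.1 over all genes with an entry. Of the 10, 8 exceeded 35.1. A gene with several start sites has more chances of a high entry, and Abd-B has 6.

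Below bcd, abd-A and Dfd, the order was Ubx, Scr, Abd-B, Antp, lab, zen and pb. The Ubx promoter had 60.79, with input signals of 24.48 and 30.62, and missed the threshold narrowly at a −log10 IDR of 1.83. Scr had 46.48 (19.78 and 19.82), Abd-B 45.76 (11.54 and 24.36) and Antp 45.04 (21.26 and 26.3). These 3 signals lay close together, and with 2 inputs per site their order is not resolved. The −log10 IDR was 0.99 at the Scr entry and 1.3 at that of Antp, but 0.11 at that of Abd-B. The lab promoter had 36.88 (25.85 and 17.32), zen 31.58 (19.8 and 16.28) and pb 27.1 (18.75 and 12.33). Among the 10614 protein-coding genes with an entry, the 10 ran from the 36.5th percentile at pb to the 77.8th at bcd, and none lay above that.

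Start sites of the same gene differed. The annotated Antp start site at 6932840 had 45.04, against 25.46 at 6999228 and 11.86 at 6958370. At Abd-B the values ran from 45.76 at 16934242 to 8.31 at 16968574, and 1 of its 6 start sites had no entry. In all, 20 of 21 start sites had an entry, though the abd-A start sites at 16829752 and 16830049 share the same entry of 75.06. The same share over the start sites of all protein-coding genes was not computed.

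**Figure D3:**
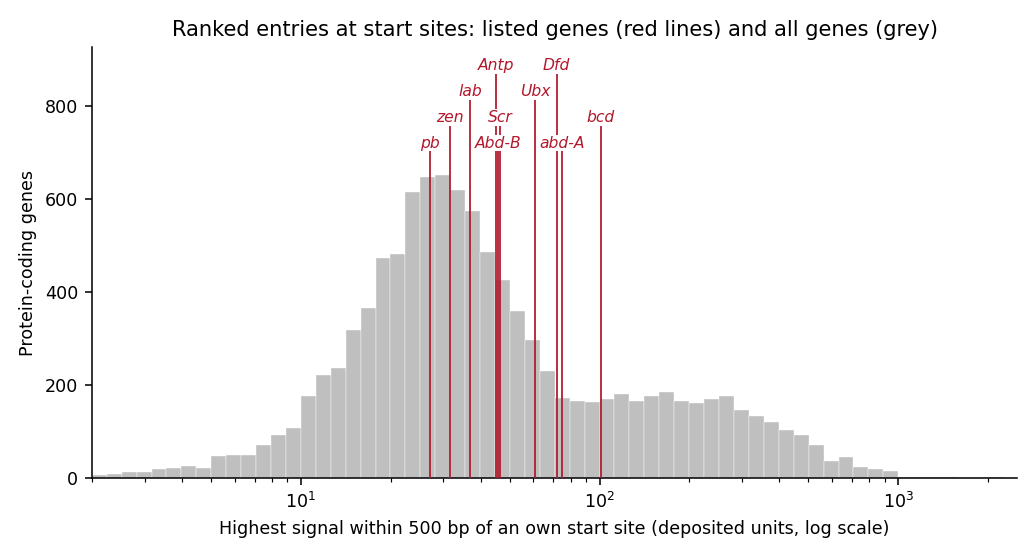
Highest signal of a ranked entry within 500 bp of an own start site (x axis, deposited units, log scale). Grey bars count the protein-coding genes with such an entry (y axis), and a red line marks each of the 10 genes. The lines run from pb at 27.1 to bcd at 100.79, and 8 of them lie right of 35.1, the median of all genes with an entry.

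Ranked entries were spread over the Hox windows at 8.95 per 10 kb, against 7.36 per 10 kb of the main arms and a median of 10.15 over the windows of all protein-coding genes. Single windows ran from 5.88 at Dfd to 12.28 at bcd. The share of entries that passed was 23.9 conservative entries per 1000 ranked entries, against 28.7 over the main arms.

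Short motifs were counted at 10 of the 11 conservative entries. The 6 own entries among them count the lab site as 2 entries and leave out 1 intronic site. Both GCCAT and GAGAG occurred within 100 bp of the summit at the Dfd promoter, the abd-A promoter and the abd-A intron. That is 3 of the 6 own entries read for motifs, against 0 of the 4 neighbours' promoters. Over all 2904 conservative windows of the same length the share was 6.13%, with 5.51% in promoters and 11% outside them. This pairing was noticed after the sequences were seen, and the difference was not tested. GAGAG without GCCAT was also at the second lab entry, an own entry, and at the CCT3 promoter, 1 of the neighbours'. GCCAT occurred 4 times at the Dfd promoter, 3 times at the abd-A intron and 2 times at its promoter, as the capitals in the sequences above show. GAGAG matches, some of which overlap each other, numbered 5 at the abd-A promoter and 2 each at Dfd and the abd-A intron. Singly, GAGAG was held by 5 of the 10 entries read for motifs and 18.3% of all windows, and GCCAT by 4 and 32.1%.

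The DRE, the full palindrome TATCGATA, was at 2 of the 10 entries, the promoters of CG14907 and modSP, and at 27.3% of all windows. Its core CGATA, of which each DRE holds an overlapping pair on opposite strands, was at 4 of the 10, against 72.7%. Of the 6 own entries 1 held the core, and of the neighbours' promoters 3 of 4. The own entry with the core, at the lab intron, and the modSP promoter each have their summit in an INE-1 fragment. The part of that sequence in the counts was not tested. CAGGTAG was at the lab and abd-A introns, 2 of 10 against 0.861%. Motif 1, GGTCACACT, was at 0 entries and 6.3% of windows, the homeodomain core TAATTA at 0 and 11.5%, the TATA box TATAAA at 1 and 24.9%, and the E-box CANNTG at 6 and 60.2%. Base composition differed as well. The own entries had a median G+C content of 52.7%, against 36.8% at the neighbours' promoters and 39.3% over all windows, and its part in the motif counts was not tested. Among the own entries the bcd promoter had the lowest G+C content, 36.8%, with 1 GCCAT and 0 GAGAG.

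**Figure D4:**
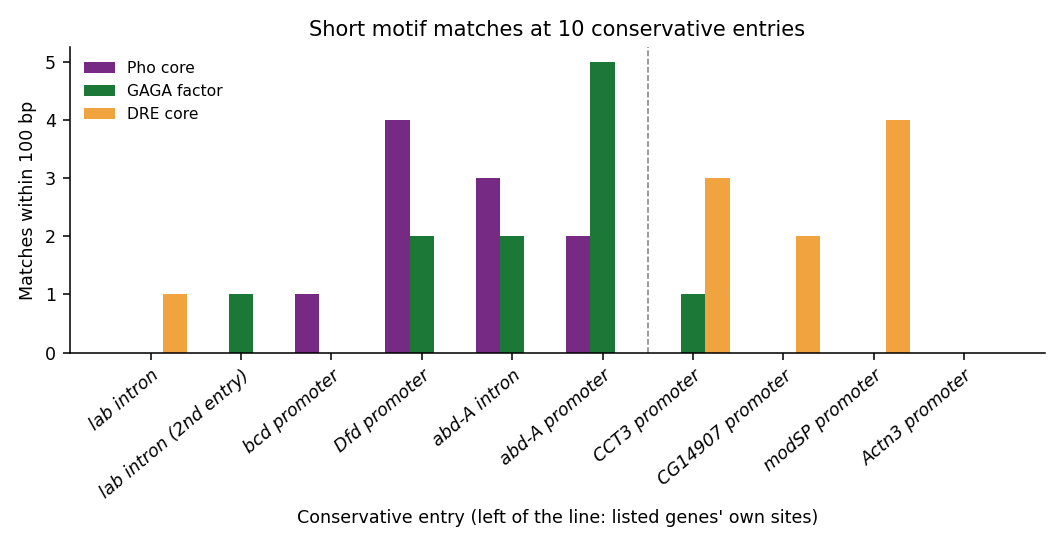
Matches to GCCAT (Pho core), GAGAG (GAGA factor) and CGATA (DRE core) on either strand within 100 bp of the summit (y axis) at 10 of the conservative entries (x axis), with the own sites of the listed genes left of the dashed line. GCCAT and GAGAG together reach their highest counts at Dfd and abd-A, and CGATA is highest at the modSP promoter with 4 matches.

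Other genes of the complexes gave little. Of 18 matched genes, which include ftz, zen2, Ama, the cuticle genes between lab and pb, and the non-coding RNAs of the bithorax complex, 1 had a conservative promoter peak. It was lncRNA:iab8, with a signal of 48.51 at the 6.4th percentile of the list. None of the 18 had a promoter peak in the optimal list or in either replicate's own list. In the conservative list none of the 12 protein-coding genes had one, against 22.6% of all protein-coding genes. Among 69 other homeobox genes 14 had one (20.3%), near that share, with the highest at achi (174.44), ro (140.86), vis (139.27) and tin (106.68). The highest promoter peak of each called gene had a median signal of 75.84 there, close to the 75.06 of the listed genes.

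Hox cofactors had promoter peaks at 2 of 8 genes, near the 22.6% of all protein-coding genes. They were gro, a corepressor (124.78), and exd, the homeodomain partner of Hox proteins (97.6), which is also one of the 69 homeobox genes above. The Polycomb and trithorax group genes, whose products regulate the complexes, had promoter peaks at 14 of 33 (42.4%), against the same 22.6%. The highest promoter peak per gene had a median signal of 75.06 over the 3 listed Hox complex genes with one, against 202.81 over these regulators, led by kis, a chromatin remodeller (527.13), fs(1)h, a bromodomain protein (377.08), Asx (352.09) and Scm (327.98). The difference between the lists was not tested.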

How the data were processed

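Anti-GFP ChIP-seq of whole embryos was deposited as peak lists for 2 biological replicates, 1 and 2, in dm6 coordinates, per the labels. The chromatin had been sonicated to 200 to 800 bp, per the labels. Peak calling used 1 control alignment beside each library, followed by the IDR, per the file list deposited by the authors. Neither aligner nor peak caller is given in the sources used here. The values deposited by the authors are a signal per peak of unstated scale, a −log10 q-value per peak, an IDR-derived score and, in the ranked lists, the −log10 of the local and global IDR and the signal of both inputs.

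Repeated entries of identical position were collapsed, and peaks were kept on 7 main arms. Genes came from Ensembl release 115, and the spans of all 10 listed genes were identical in RefSeq. A peak belongs to a window by an overlap of at least 1 bp; promoter means within 500 bp of a start site, and percentiles are within a list. Inputs were tied to replicates by exact position and signal: 50128 of 92932 first-input peaks on the main arms matched replicate 1's own ranked list and 0 replicate 2's; for the second input, 66091 of 90119 matched replicate 2's and 0 replicate 1's. Sequences came from the Release 6 genome (RefSeq), in 201 bp windows on both strands. Of the 11 conservative entries in the windows, 10 were read for motifs and 5 are printed; 1 own intronic site is not analysed here for sequence. Intervals are 95% Wilson and cover counting error only. Counting was tested on simulated data. The members, lists and motifs were chosen with earlier results of these data known, and named genes are the 10 listed genes, genes nearest to a summit in their windows, and up to 4 genes per list. The listed names lncRNA:PRE30, calypso and cut matched no gene and were left out. The tools were pandas 2.3.3, matplotlib 3.10.9, NumPy 2.4.6 and SciPy 1.17.1 under Python 3.11.15. Alternatives covered the peak list, each replicate alone, the flank, the overlap, the promoter window and the stronger peaks.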

Additional observations from a re-analysis of the deposited data

How the results depend on the processing

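Counts at these genes depended on the strength required of a peak and on the replicate. Among conservative peaks above the list's median signal, 1 of the 10 genes had a peak in its window (41.8% of all protein-coding genes) and 0 an own promoter peak (14.0%), from 1 entry, at 1.94 per Mb (10.6 on the main arms) with a promoter share of 100%. With peaks that overlap a peak of each replicate's own list, an alternative chosen after seeing the data, 1 gene had a peak (46.1% of all) and 0 an own promoter peak (16.4%), with 2 entries, 3.88 per Mb (13.4 on the arms) and a promoter share of 100%. Leaving out 1 replicate gave 3 to 7 genes with a peak in the window, 0 to 3 with an own promoter peak, 5 to 9 entries, 9.71 to 17.5 per Mb and a promoter share of 60% to 77.8%, with the low counts from replicate 1's own list. With a flank of 0 kb, 4 genes had a peak (20.8% of all), with 6 entries and a promoter share of 33.3%. Over the main arms the promoter share was 97% for peaks above the median signal and 96.1% for peaks overlapping both replicates' lists. It was 91.4% in replicate 1's own list, 91.7% in replicate 2's and 88.7% in the conservative list. The cause of the moves in the Hox windows beyond the fewer peaks or shorter windows was not tested. With entries that share input peaks counted once, also added later, the promoter share was 70%. With that setting, flanks of 5 and 20 kb, the optimal list, all repeat entries, summits in place of overlaps, and promoter windows of 250 and 1000 bp, the counts and shares computed stayed within 1.5 times their values. The lists have no read counts, so depth limits cannot be given. No paired analysis was possible because there is 1 group.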
